A study of Homo sapiens with 5 samples.

Results

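Along 4 chromosome segments, RNA polymerase II (RNAPII) density was lower in 2 knockout lines than in wild type (WT) RPE1 cells, and these segments are described here TSS by TSS. The segments were chr7:64140495-76627241 (7 proximal), chr7:105876604-158856578 (7 distal), chr19:54906150-58599277 (19 distal) and chr20:142369-25863201 (20 short arm) on hg38. They were chosen by flank density, which was lower there in both knockouts than in WT, so the difference from WT inside them is a description and was not tested. Members were the transcription start sites (TSSs) in the segments with values in the files of all 3 libraries: 399 of 9787, with 43 in 7 proximal, 185 in 7 distal, 59 in 19 distal and 112 in 20 short arm. Of the 399, 256 were expressed, meaning that the authors listed a WT BrU-seq value (nascent transcription over the gene body) above 0. GENCODE 44 called 285 of the member genes protein coding, and 389 members lay within 1 kb of an annotated start of the same gene.

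RNAPII was mapped by ChIP-seq of its largest subunit, RPB1, in untreated RPE1 cells, a human retinal pigment epithelial line immortalised with hTERT. Each group, WT included, had the same starting line: inducible Cas9, with p53 and the puromycin resistance gene (puro) knocked out. The groups were WT, CFAP20-KO, which lacks CFAP20, and CFAP20/CCNC-dKO, which lacks CFAP20 and cyclin C and is also called the double knockout here. At TSSs each group had 1 library, and WT had 3 libraries around replication origins. The labels do not say whether a knockout line came from 1 clone, and the analysed TSSs include none of the 2 deleted genes, so neither deletion was checked at its target. Chromatin of Drosophila was added as a spike-in, with 32.6 ng per 22 µg for CFAP20/CCNC-dKO and 40 ng per 28 µg for the other groups. The labels name 1 RPB1 antibody for WT and another for both knockouts, and the catalogue number given for WT is also that of the spike-in antibody. That label may be wrong. Effects of the antibody and of the genotype cannot be told apart.

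RNAPII initiates at promoters, pauses shortly downstream and is then released into the gene body, so a ChIP-seq profile of an active gene has a peak at the TSS and a lower plateau behind it. CFAP20 is a small conserved protein first described in cilia and flagella. CCNC encodes cyclin C, the cyclin of the kinase module of Mediator, the complex that links transcription factors to RNAPII.

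Density was measured in 3 windows: the flank (2000 to 4500 bp on both sides of the TSS), the promoter (-200 to 500 bp) and the gene body (2000 to 5000 bp, genes of at least 5000 bp). The knockout libraries were shallow. Deposited coverage corresponded to 12.5% (CFAP20-KO) and 17.5% (CFAP20/CCNC-dKO) of the equivalent fragments of WT over TSS windows. A member's flank held a median of 279 fragments in WT, against 18.6 in CFAP20-KO and 27 in the double knockout, and the promoter of an expressed member 102, 6.82 and 7.36. Isolated fragments covered 145 bp in WT, 298 bp in CFAP20-KO and 319 bp in the double knockout, so fragment length differed with the group as well, and its part in the results was not tested. Relative ratios below are knockout / WT density divided by the median of that ratio outside the segments. Medians over TSSs include a pseudocount of 0.0424, and single-gene ratios do not. The 95% Clopper-Pearson intervals cover counting error only. Of the markers of differentiated pigment epithelium, 4 of 7 had an analysed TSS, with WT promoter densities from 0.387 to 0.54 (MITF, a pigment cell transcription factor gene), all above the 0.305 that was the median of TSSs without a BrU-seq value. No marker of the epithelial line list had an analysed TSS, and 3 of 4 blood markers were at 0.263 to 0.33 in WT. The 1 of 4 neuron markers with an analysed TSS, SNAP25, which is also a member, was at 1.05 in WT. No measurement of DNA amount was used here, so fewer DNA copies of a segment and less RNAPII per copy cannot be told apart.

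The bases before the TSSs of ATXN7L1, FLJ40288 and ZNF273 are shown first, because these are 3 of the 5 expressed members whose knockout / WT promoter ratio had a counting interval above the median ratio of their segment in both knockouts. Sequences are from hg38, 5′ to 3′ on the strand of the gene, and end at or near the base before the TSS. Capitals mark matches on either strand to a GC box (GGGCGG), to an ETS site (CCGGAAG), to the CCAAT box or TATA box (TATAAA), or to the NRF1 or YY1 motif. The windows are chr7:105876605-105876795 (minus strand), chr7:132648689-132648793 (plus) and chr7:64903047-64903246 (plus). Bases in annotated exons were left out, which shortened ATXN7L1 to 191 and FLJ40288 to 105 bases.
ATXN7L1: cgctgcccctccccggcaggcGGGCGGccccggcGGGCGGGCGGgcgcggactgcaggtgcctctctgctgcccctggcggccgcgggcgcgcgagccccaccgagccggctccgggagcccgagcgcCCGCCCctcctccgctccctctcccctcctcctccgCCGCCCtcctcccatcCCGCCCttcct
FLJ40288: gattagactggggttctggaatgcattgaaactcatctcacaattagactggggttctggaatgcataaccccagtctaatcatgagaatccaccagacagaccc
ZNF273: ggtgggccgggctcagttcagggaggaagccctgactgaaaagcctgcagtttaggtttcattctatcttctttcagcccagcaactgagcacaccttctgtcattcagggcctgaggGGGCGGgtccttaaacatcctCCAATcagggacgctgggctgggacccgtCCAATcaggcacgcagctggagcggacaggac

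None of the motifs was shared by all 3. FLJ40288 held none of them, ATXN7L1 held 6 GC box matches, and ZNF273 a GC box and 2 CCAAT matches. Over the 200 bases before each TSS, a GC box was found in 35.6% of members and 32% of all analysed TSSs, and CCAAT in 30.6% and 28.9%. An ETS match stood in 6.52% of members against 4.96% of all, an NRF1 match in 1.25% against 0.47%, TATAAA in 9.77% against 10.6% and the YY1 letters in 0.251% against 0.174%. Segments differed more among themselves: a GC box was found in 55.9% of TSSs in 19 distal and 30.2% in 7 proximal, and an ETS match in 20.9% in 7 proximal and 1.79% in 20 short arm. Median GC content of these 200 bases was 61.5% in 19 distal, 59% in 7 proximal, 56% in 20 short arm and 53% in 7 distal, against 53.5% over all analysed TSSs.

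The bases before 2 member TSSs at an inner edge of a segment are shown because these are the last TSSs that the chosen coordinates hold. The windows are chr19:54905950-54906147 (plus strand) for the start of 19 distal and chr20:25863242-25863401 (minus) for the end of 20 short arm. ATXN7L1, printed above, is the first TSS of 7 distal. POMZP3, the last of 7 proximal, is named only, as all 200 bases lie in annotated exons.
NCR1: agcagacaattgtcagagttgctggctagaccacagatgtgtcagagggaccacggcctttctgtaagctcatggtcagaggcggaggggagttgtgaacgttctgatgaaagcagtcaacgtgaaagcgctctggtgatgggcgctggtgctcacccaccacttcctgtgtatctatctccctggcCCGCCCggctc
FAM182B: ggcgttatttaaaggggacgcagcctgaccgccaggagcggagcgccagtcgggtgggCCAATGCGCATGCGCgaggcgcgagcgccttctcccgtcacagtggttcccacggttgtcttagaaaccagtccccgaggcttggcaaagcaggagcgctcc

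FAM182B held a CCAAT and an NRF1 match, and NCR1 a GC box. A match describes letters and not binding.

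Flank density was used to choose the segments and is described first. In 7 distal the median was 0.361 in WT, against 0.196 in CFAP20-KO and 0.202 in the double knockout. In 20 short arm it was 0.364, 0.203 and 0.183, and in 19 distal 0.37, 0.205 and 0.184. The 7 proximal segment started from 0.323 in WT and had 0.211 and 0.181. WT was at the level of the rest of the genome, with 0.36 inside and 0.359 outside, whereas the knockouts had 0.2 and 0.189 inside and 0.374 and 0.372 outside. As a relative ratio the median member was at 0.585 in CFAP20-KO and 0.562 in the double knockout.

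**Figure D1:**
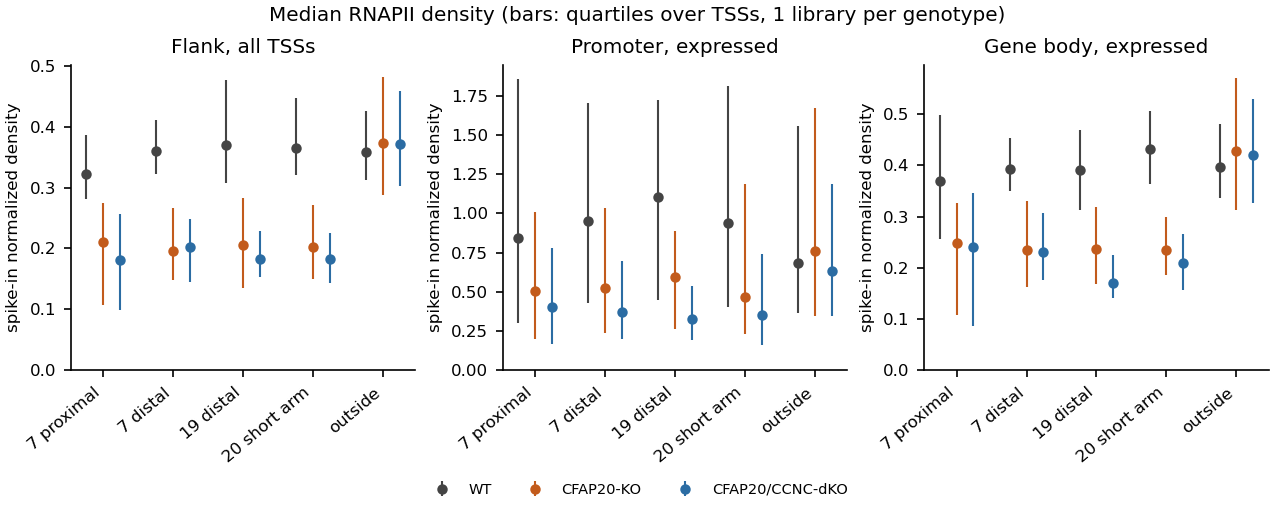
Median RNAPII density (spike-in normalized, vertical axes) in the flank, at promoters and in gene bodies for each segment and for TSSs outside, in 1 library per genotype, with bars from the lower to the upper quartile over TSSs. Both knockouts lie below WT in each segment and window, while outside the flank medians of the 3 libraries lie between 0.359 and 0.374.

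Nearly every member followed. Relative to the median outside, flank density was lower at 391 of 399 members in CFAP20-KO and at 392 in the double knockout. It was at least 1.5-fold lower at 278 members in CFAP20-KO, beside 10.2% of all analysed TSSs, and at 310 in CFAP20/CCNC-dKO, beside 7.45%. Both knockouts were at least 1.5-fold lower at 228 members, beside 3.31% of all TSSs. No member was at least 1.5-fold higher in either knockout, beside 4.03% of all TSSs in CFAP20-KO and 2.53% in the double knockout. Between the knockouts, 61 members were at least 1.5-fold lower in CFAP20/CCNC-dKO, beside 7.67%, and 54 higher, beside 9.03%. These values chose the segments, and nothing is read from their counts.

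With fragments pooled over windows that share no base, the relative flank ratio in CFAP20-KO was 0.602 (95% counting interval 0.56 to 0.646) in 7 proximal, 0.535 (0.517 to 0.553) in 7 distal, 0.537 (0.505 to 0.57) in 19 distal and 0.523 (0.501 to 0.546) in 20 short arm. CFAP20/CCNC-dKO gave 0.558 (0.525 to 0.594), 0.532 (0.517 to 0.547), 0.481 (0.456 to 0.508) and 0.48 (0.463 to 0.499) in the same order. The drop was thus of similar size in the 4 segments and shallowest in 7 proximal in both libraries. Between the knockouts, the CFAP20/CCNC-dKO / CFAP20-KO ratio was 0.995 (0.954 to 1.04) in 7 distal and 0.928 (0.848 to 1.02) in 7 proximal, intervals that include no difference. It was 0.896 (0.829 to 0.969) in 19 distal and 0.918 (0.868 to 0.97) in 20 short arm, slightly lower in CFAP20/CCNC-dKO beyond counting error. With 1 library each, whether these small differences exceed the spread between libraries was not tested.

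Flanks of silent and active members were lower to a similar degree, a description, since flank density chose the segments. At the 143 members without a BrU-seq value above 0, flank density was 0.327 in WT, against 0.164 in CFAP20-KO and 0.166 in the double knockout, relative ratios of 0.563 and 0.574. The 144 members with BrU-seq values above 0.591, the median of those above 0, had 0.442, 0.27 and 0.232 (0.606 and 0.554). Outside, the same class of silent TSSs was at 0.951 and 0.987. Promoter ratios were 0.547 and 0.641 at the silent members in CFAP20-KO and CFAP20/CCNC-dKO, and 0.553 and 0.482 at the 144. Promoters of silent TSSs outside were at 0.891 and 1.14. The lower signal was present at TSSs with and without measured nascent transcription.

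The flank level was then described along each segment. Each segment was cut into 4 blocks of about equal TSS number. In 7 distal the relative flank ratio of the blocks ranged from 0.552 to 0.588 in CFAP20-KO and from 0.569 to 0.596 in the double knockout. In 20 short arm the ranges were 0.5 to 0.643 and 0.481 to 0.599, and in 19 distal 0.511 to 0.619 and 0.488 to 0.609. The 7 proximal blocks, of 10 or 11 TSSs, ranged from 0.583 to 0.713 and from 0.592 to 0.636. No block of any segment came back to the level outside, but flank density drew the segments, so this is a description. At promoters the last block of 20 short arm, with 8 expressed members, was closest to it, at 0.842 and 0.675.

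**Figure D2:**
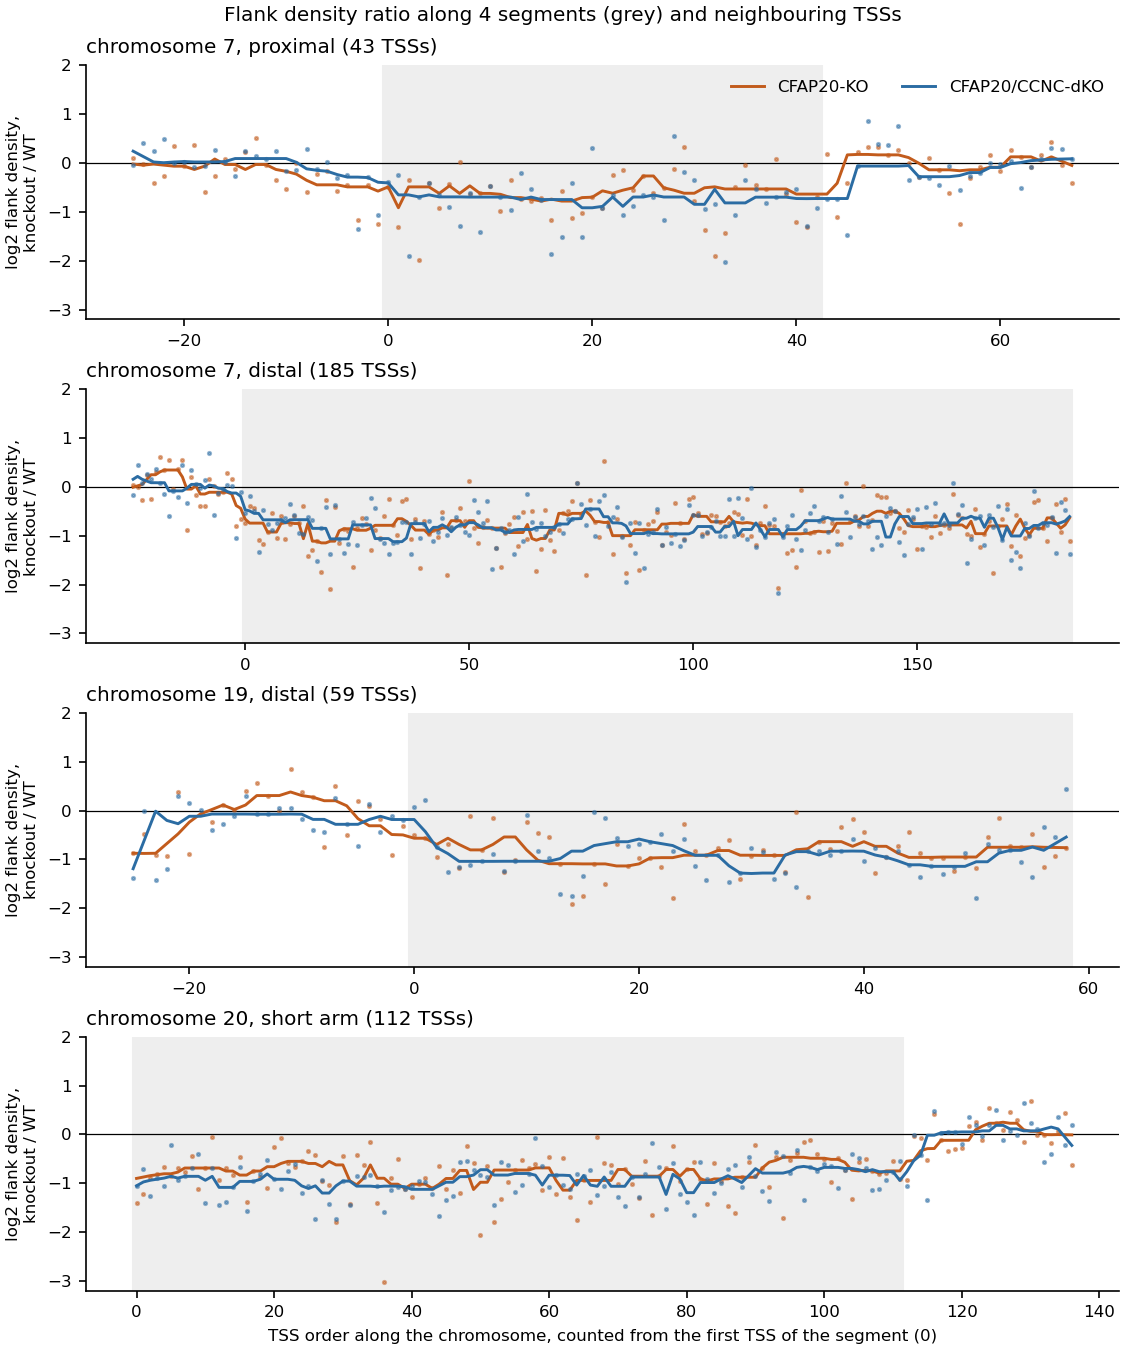
Log2 flank density ratio of each knockout to WT, relative to the median outside (vertical axis), for each TSS in order along the chromosome (horizontal axis, counted in TSSs from the first member), with the running median of 9 TSSs as a line and the segment in grey. Both lines lie below 0 throughout the grey areas and return towards 0 beyond the inner edges, most gradually before 7 proximal.

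The rest of the same chromosomes is given for comparison. The 98 TSSs on chromosome 7 between its 2 segments had relative flank ratios of 0.985 in CFAP20-KO and 0.984 in the double knockout, and the 190 TSSs before 7 proximal 0.977 and 1.01. On chromosome 20 the 167 TSSs after the segment were at 1.03 and 1.01. The 408 TSSs of chromosome 19 before the segment were at 1.12 and 1.07, a part of the chromosome that also holds TSSs with higher knockout density. At least 1.5-fold lower flanks in both knockouts were found at 2 of 98, 2 of 190, 2 of 167 and 10 of 408 of these TSSs. Since flank density drew the boundaries, these values are a description.

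Flank density was also read in runs of 10 neighbouring TSSs along the genome. Of 363 runs wholly inside a segment, 309 (85.1%) had a median flank at least 1.5-fold lower in both knockouts, beside 3.57% of all 9580 runs. Outside the segments 22 of 9172 runs did. They fell into 2 stretches, 1 on chromosome 10 from 31319125 to 43077027 (19 TSSs, relative ratios 0.624 and 0.569) and 1 on chromosome 19 from 51458454 to 53333749 (21 TSSs, 0.582 and 0.561). The second holds many zinc finger genes. Near its end, ZNF415 (53132918) was at 0.469 in CFAP20-KO and 0.366 in the double knockout, and the next TSS, ZNF347 (53159031), at 1.35 and 1.26.

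Of the 8 segment ends, 3 had no analysed TSS beyond them: the chromosome ends of 7 distal, 19 distal and 20 short arm, which lay 0.489, 0.0183 and 0.142 Mb from the end of the sequence. For the 5 inner edges the medians of 10 TSSs on each side were compared. At the start of 7 distal the relative flank ratio was 0.561 in CFAP20-KO and 0.636 in the double knockout inside the segment, and outside 0.914 and 0.977, a log2 step of -0.70 and -0.62.

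At this edge, ATXN7L1 (105876604), which encodes a protein related to ataxin 7, had flank densities of 0.49 in WT, against 0.285 in CFAP20-KO and 0.327 in the double knockout. Its outer neighbour PUS7 (105522258), a pseudouridine synthase gene 354 kb away, had 0.42, 0.259 and 0.395, relative ratios of 0.596 (0.377 to 0.903) and 0.928 (0.687 to 1.23). The next one, SRPK2 (105298779), a kinase of splicing factors, had 0.442, 0.246 and 0.195 and was low in both. ORC5 (104208047), a subunit of the origin recognition complex, had 0.278, 0.326 and 0.286, ratios of 1.14 and 1.02. At its promoter, PUS7 had 2.58 in WT, against 1.29 in CFAP20-KO and 1.08 in the double knockout. The SRPK2 promoter had 0.397, 0.139 and 0.594, and that of ORC5 2.16, 2.91 and 1.89. The least-squares split fell between ORC5 and SRPK2 in each knockout, 2 TSSs outside the chosen start, and the 1091 kb between them hold no analysed TSS. Its sharpness is therefore limited by TSS spacing.

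At the end of 7 proximal the step was -0.75 in CFAP20-KO and -0.59 in the double knockout. POMZP3 (76627241), a gene made of zona pellucida and nuclear pore gene copies, had 0.344 in WT, against 0.203 in CFAP20-KO and 0.164 in the double knockout. The first TSS outside, AC007003.1 (76902491), had 0.25, 0.298 and 0.137 and so differed between the knockouts. AC005522.7 (76976961) with 0.262, 0.104 and 0.143 was low in both. Both knockouts put the split 3 TSSs further out, in a gap of 279 kb between AC073635.5 (77258123) and PTPN12 (77537275), a tyrosine phosphatase gene. With 5 TSSs on each side the CFAP20/CCNC-dKO step at this edge was 0.03. The 3 outer TSSs nearest to the edge were at 0.539, 0.54 and 0.294 in that library (AC007003.1, AC005522.7 and AC073635.5).

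The start of 7 proximal was not sharp. The step there was -0.06 in CFAP20-KO and -0.47 in the double knockout, and in CFAP20-KO it changed sign with 5 TSSs on each side (0.09). ENSG00000229881 (64140495), a noncoding RNA gene without a BrU-seq value, had 0.285, 0.198 and 0.21 in WT, CFAP20-KO and CFAP20/CCNC-dKO, and ZNF727 (64045443), the next TSS outside, had 0.307, 0.11 and 0.126, a deeper drop than inside. RP5-905H7.3 (63241645), with 0.311, 0.119 and 0.0973, was low as well. The split over both knockouts lay 3 TSSs outside, between RP11-196D18.1 (63054431) and RP5-905H7.3. In CFAP20-KO alone it lay 5 TSSs outside, before ZNF716 at 57450177. The chosen coordinate thus falls within the low stretch.

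At the start of 19 distal the step was -0.72 in CFAP20-KO and -0.81 in the double knockout. NCR1 (54906150), a natural killer cell receptor gene, had flanks of 0.309 in WT, against 0.213 in CFAP20-KO and 0.329 in the double knockout. NLRP7 (54941750) had 0.284, 0.185 and 0.342. Neither was low in CFAP20/CCNC-dKO, with ratios of 1.05 (0.753 to 1.45) and 1.19 (0.851 to 1.62). EPS8L1 (55075901), an actin regulator gene, was low in both (0.452 and 0.539). The split in CFAP20/CCNC-dKO lay between NLRP7 and EPS8L1, 134 kb apart and 2 TSSs inside the chosen start. In CFAP20-KO it lay between LILRA1 (54593648) and LILRB4 (54662128), 2 TSSs outside. Whether the edge differs between the lines was not tested, and single flanks here held 13.2 to 48.7 fragments in the knockouts.

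The end of 20 short arm lies near the centromere. FAM182B (25863201) had 0.3, 0.146 and 0.196, and RP4-760C5.5 (25955812), the first TSS outside, 0.327, 0.158 and 0.137 in WT, CFAP20-KO and CFAP20/CCNC-dKO. FAM182A (26054655) was listed at 0 in the 3 libraries. LINC01597 (30288479) had 0.208, 0.203 and 0.146. The step was -0.53 in CFAP20-KO and -0.75 in the double knockout. In CFAP20/CCNC-dKO the split lay 4 TSSs outside, between LINC01598 (30361730) and DEFB116 (31308585), 947 kb apart. In CFAP20-KO it lay 1 TSS outside. RP4-760C5.5 was low in both knockouts (0.468 and 0.414). FAM182A, without coverage, entered the steps and splits with log2 ratios of -0.04 and -0.02, which come from the pseudocount and centring alone. The CFAP20-KO split fell just before FAM182A, so its place rests partly on a TSS without coverage. LINC01597 was at 0.948 in CFAP20-KO and 0.695 (0.418 to 1.1) in CFAP20/CCNC-dKO, and LINC01598 at log2 ratios of -0.53 and -1.35. The low stretch thus reached at least 1 TSS past the chosen end, and how much further rests on few TSSs.

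By medians relative to outside, promoters of expressed members dropped about as much as flanks in CFAP20-KO and somewhat more in CFAP20/CCNC-dKO. Median promoter density in 7 distal was 0.951 in WT, against 0.526 in CFAP20-KO and 0.371 in the double knockout. In 19 distal it was 1.1, 0.593 and 0.325, in 20 short arm 0.936, 0.469 and 0.354, and in 7 proximal 0.846, 0.508 and 0.402. Outside, the medians were 0.682, 0.761 and 0.63, so the median CFAP20/CCNC-dKO promoter was below WT there too. Relative to outside, the median expressed member was at 0.578 in CFAP20-KO (log2 quartiles -1.29 and -0.31) and 0.506 in CFAP20/CCNC-dKO (-1.48 and -0.52). Promoters were at least 1.5-fold lower at 161 of 256 expressed members in CFAP20-KO, beside 22.3% of all expressed TSSs, and at 184 in CFAP20/CCNC-dKO, beside 19.2%. They were lower in both at 126, beside 6.6%. At least 1.5-fold higher were 8 members in CFAP20-KO, beside 16.4%, and 7 in CFAP20/CCNC-dKO, beside 16.7%.

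Gene body density was lower in about the same proportion. The body window contains the whole downstream part of the flank, whose density was used to choose the segments. The body medians and counts are therefore a description, and not a result separate from the flank. In the 234 expressed members of at least 5000 bp, median body density was 0.393 in WT, against 0.238 in CFAP20-KO and 0.211 in the double knockout, with relative ratios of 0.593 and 0.557. The lowest median was that of 19 distal in CFAP20/CCNC-dKO, at 0.17 against 0.391 in WT (0.464). Bodies were at least 1.5-fold lower at 143 members in CFAP20-KO, beside 13.9%, at 175 in CFAP20/CCNC-dKO, beside 11%, and in both at 112, beside 3.97%. At 1 member each the body was at least 1.5-fold higher, beside 7.06% in CFAP20-KO and 4.75% in the double knockout. The promoter to body ratio hardly moved in CFAP20-KO, with a median of 2.2 in WT and 2.1 in the knockout and 119 of 234 members below the median change outside. In CFAP20/CCNC-dKO it was 1.56, and 137 members lay below. Outside, it was 1.71 in WT, against 1.84 in CFAP20-KO and 1.53 in the double knockout. The shape of RNAPII along these genes was thus largely kept at a lower level in CFAP20-KO.

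**Figure D3:**
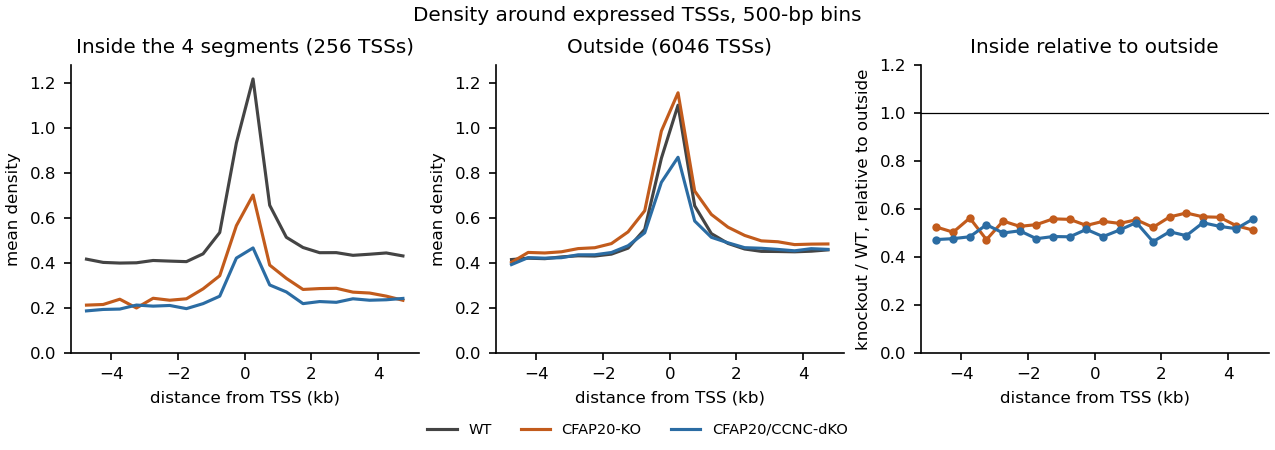
Mean density around expressed TSSs in 500-bp bins (horizontal axis, distance from the TSS in kb) inside the segments and outside, and the knockout / WT ratio inside divided by that outside, in 1 library per genotype. The relative ratio lies between 0.472 and 0.583 in CFAP20-KO and between 0.464 and 0.558 in CFAP20/CCNC-dKO in all 20 bins, with no peak or dip at the TSS.

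Along the 10 kb window the relative ratio was below 1 in each of 20 bins in each segment and knockout. Some of these bins lie in the flank that chose the segments. In the first 500 bp after the TSS, mean density of expressed members was 1.22 in WT, against 0.702 in CFAP20-KO and 0.467 in the double knockout, beside 1.1, 1.16 and 0.871 outside. The lowest bin of any segment was 0.34, in 19 distal in CFAP20/CCNC-dKO, and the highest 0.722, in 7 proximal in CFAP20-KO.

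The strongest promoters showed the drop with the narrowest intervals. UBE2S (chromosome 19, TSS at 55407777), which encodes a ubiquitin-conjugating enzyme of the anaphase-promoting complex, had 8.18 in WT, against 4.05 in CFAP20-KO and 3.22 in the double knockout. Its relative ratios were 0.484 (0.359 to 0.639) and 0.474 (0.362 to 0.611). In CFAP20-KO the UBE2S flank (0.7 in WT, 0.647) and body (1.06 and 1.03) did not follow, with relative ratios of 0.896 (0.675 to 1.17) and 0.91 (0.68 to 1.2), whereas in CFAP20/CCNC-dKO they were at 0.516 and 0.502. PPP1R12C (55117559), a subunit of myosin phosphatase, had 4.49, 2.72 and 1.27, and the zinc finger gene ZNF837 (58381060) had 3.32, 1.83 and 1.02. Both knockouts were below WT at each of these 3 promoters.

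ZNF274 (58183310), a zinc finger protein known to bind zinc finger gene clusters, had 3.04 in WT, against 0.565 in CFAP20-KO and 1.29 in the double knockout. Its CFAP20-KO ratio of 0.181 (0.0742 to 0.371) lay below that of its segment, and the CFAP20/CCNC-dKO ratio of 0.512 (0.329 to 0.765) did not. On 20 short arm, PTPRA (2873489), a receptor tyrosine phosphatase gene, had 4.17, 1.28 and 1.14 and was below its segment in CFAP20-KO (0.299, 0.172 to 0.486). DDRGK1 (3204685), of the UFM1 conjugation pathway, had 3.1, 2.16 and 0.49 and was below it in CFAP20/CCNC-dKO (0.191, 0.0897 to 0.357). RBCK1 (408053), of the linear ubiquitin ligase complex, had 3.09, 1.52 and 1.3, and NRSN2 (347024) 2.7, 1.47 and 1.38. Of these 5, none lay below its segment in both knockouts.

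On chromosome 7, ESYT2 (158829628), which tethers the endoplasmic reticulum to the plasma membrane, had 3.84 in WT, against 1.93 in CFAP20-KO and 1.21 in the double knockout. The noncoding RP11-212P7.2 (128531069) had 2.97, 1.59 and 0.663, MDFIC (114922359) 2.9, 1.68 and 1.04 and ZNF786 (149090705) 2.67, 1.67 and 1.18. Of these 4, RP11-212P7.2 lay below its segment in CFAP20/CCNC-dKO (0.269, 0.143 to 0.465). In 7 proximal, POM121C (75486271), a nuclear pore gene, had 3.76, 0.586 and 1.23, and GTF2IRD2B (75092581) 2.95, 1.33 and 0.816. Both have near-identical copies nearby, among which reads could be split, so their values are uncertain. LIMK1 (74083940), the kinase that inactivates cofilin, had 2.56, 1.5 and 1.04 and BCL7B (73558002), a BAF complex subunit, 2.55, 1.87 and 1.06. The last 2 lay at the level of their segment in both knockouts.

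**Figure D4:**
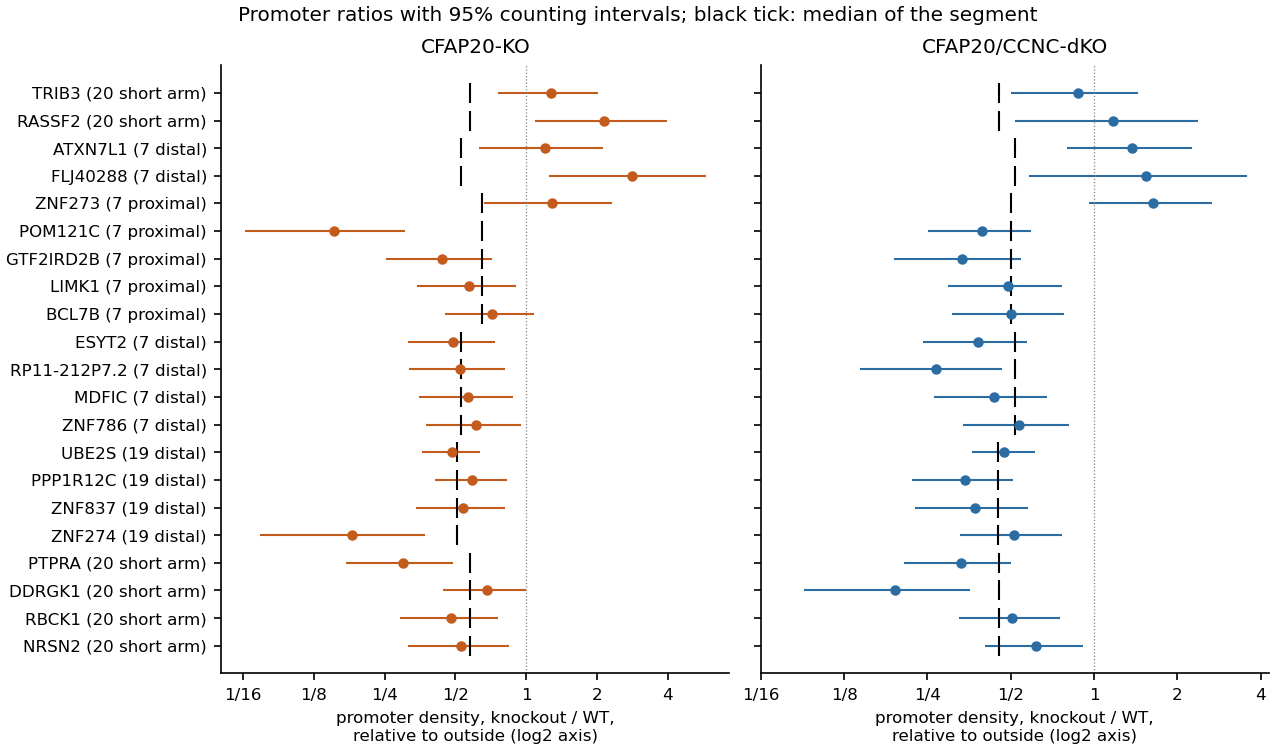
Promoter density ratio of each knockout to WT, relative to outside (horizontal log2 axis), with 95% counting intervals, for the 5 members above their segment in both knockouts and the 4 with the highest WT promoter density in each segment. The black tick is the median ratio of the segment, and 1 is the level outside. TRIB3, RASSF2, ATXN7L1, FLJ40288 and ZNF273 lie right of their ticks in both panels, while the intervals of UBE2S and LIMK1 include theirs.

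To ask which expressed genes escaped or exceeded the drop, each counting interval was set against the median ratio of expressed members of its segment: 0.648, 0.531, 0.509 and 0.579 in CFAP20-KO for 7 proximal, 7 distal, 19 distal and 20 short arm, and 0.501, 0.519, 0.449 and 0.453 in CFAP20/CCNC-dKO. In CFAP20-KO 21 of 256 members (8.2%) lay above, beside 8.92% of all expressed TSSs set against the median of their own region, and 16 (6.25%) below, beside 5.33%. In CFAP20/CCNC-dKO 16 (6.25%) lay above, beside 8.85%, and 14 (5.47%) below, beside 7.92%. Above in both were 5 (1.95%), beside 1.68%, and below in both 0, beside 0.904%. These shares were near the background. Knockout promoter density was lower inside than outside, so knockout counts there were smaller and departures harder to call. Similar shares therefore do not show that members departed as often as other TSSs.

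TRIB3 (20, 380617), a stress-induced pseudokinase gene, had promoter densities of 1.22 in WT, against 1.59 in CFAP20-KO and 0.887 in the double knockout, ratios of 1.27 (0.758 to 2.03) and 0.877 (0.502 to 1.45). ATXN7L1 had 0.854, 1.05 and 0.975 (1.2, 0.628 to 2.13, and 1.37, 0.797 to 2.26). ZNF273 (7, 64903247), a zinc finger gene, had 0.764, 1.01 and 1.04 (1.29, 0.66 to 2.32, and 1.63, 0.957 to 2.67). The intervals of these 3 promoters included the level outside the segments in both knockouts.

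RASSF2 (20, 4823645), a Ras association domain gene, had 0.478, 1.05 and 0.467, so CFAP20-KO was at 2.15 (1.09 to 3.96) and CFAP20/CCNC-dKO at 1.18 (0.517 to 2.39). The noncoding FLJ40288 (7, 132648794) had 0.28, 0.807 and 0.36 (2.81, 1.25 to 5.83, and 1.55, 0.582 to 3.56). Its WT promoter lay below its own WT flank of 0.331, so the ratio is relative to background.

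Flanks of these 5 genes are given beside their promoters. Relative flank ratios in CFAP20-KO were 0.515 at TRIB3, 0.404 at RASSF2, 0.563 at ATXN7L1, 0.539 at FLJ40288 and 0.718 at ZNF273. In CFAP20/CCNC-dKO they were 0.849, 0.399, 0.659, 0.454 and 0.485. The TRIB3 flank in that library (0.623 to 1.14) and body (0.913, 0.602 to 1.34) were thus near the ratio of its promoter, while in CFAP20-KO its body was at 0.485. The 2 knockouts share the WT library, and a low WT value would raise both ratios. In origin windows the TRIB3 promoter, relative to TSSs outside, was at 1.82, 1.57 and 2.6 in WT replicates 1, 2 and 3. CFAP20-KO was at 2 there and CFAP20/CCNC-dKO at 1.35. With a promoter window of -500 to 1000 bp, ATXN7L1 was the 1 of the 5 that stayed above in both, beside BFSP1, FAM180A and ZNF467, and SNAP25 lay below in both. With 99% intervals none of the 5 stayed.

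CPA4 (7, 130293153), a carboxypeptidase gene chosen here after its values were seen, was the member with the highest log2 flank ratio in CFAP20-KO. Its flank had 0.531 in WT, against 0.803 in CFAP20-KO and 0.471 in the double knockout (1.47, 1.13 to 1.88, and 0.876, 0.666 to 1.14). The gene body had 0.728, 1.1 and 0.429, and the promoter 1.13, 1.57 and 0.398. CPA4 flank and body thus stood above WT in CFAP20-KO, while in CFAP20/CCNC-dKO its body (0.571, 0.395 to 0.804) was near the median of its segment and its flank above it. RP11-138A9.2 (7, 130936464), a noncoding gene chosen in the same way, had a gene body of 2.3 in WT, against 0.767 in CFAP20-KO and 0.494 in the double knockout.

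Among members with at least 20 WT promoter fragments, the 4 lowest in CFAP20-KO were NLRP5, CTC-444N24.11, AC073130.1 and LRRN3, with no coverage in CFAP20-KO and WT densities of 0.25 to 0.506. The upper 95% limits of their relative ratios were 1.18, 0.565, 0.972 and 0.66, so only limits can be given. The 4 highest beside the 5 above were AHCYL2 (0.721 in WT, against 1.34 in CFAP20-KO, 0.247 in CFAP20/CCNC-dKO), GBX1, FAM182B and ZSCAN18. GBX1 and ZSCAN18 had WT promoters of 0.258 and 0.205, below the silent level of 0.305. In CFAP20/CCNC-dKO the lowest were SLC52A3, RP5-965G21.4, RP4-568F9.6 and SHH, again without coverage, from 0.227 to 0.421 in WT. The highest were SMIM17, PIK3CG, RP11-328P23.4 and PARP12, with ratios of 2.13, 1.79, 1.69 and 1.59. Their intervals lay above the ratio of their segment and all include 1. WT promoters of SMIM17, PIK3CG and RP11-328P23.4 were at 0.187, 0.269 and 0.286, also below the silent level. Most of these 16 promoters had low WT density.

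Lists of genes known to lie on these arms are described by function. A member counts here as lower when its promoter ratio was at least 1.5-fold below the median outside, beside 22.3% of all expressed TSSs in CFAP20-KO, 19.2% in CFAP20/CCNC-dKO and 6.6% in both. From the Williams-Beuren region of 7 proximal, deleted in a developmental syndrome, 7 of 27 genes were members. Of these, 4 were at least 1.5-fold lower in both knockouts, with median ratios of 0.581 and 0.493. CLIP2 (74289475), a microtubule linker gene, had 1.97, 1.07 and 0.552. The NCF1 promoter was listed at 0 in all 3 libraries, and the gene has near-identical copies.

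Of genes of DNA replication, repair and mitosis, 5 of 17 were members and 3 were lower in both (medians 0.655 and 0.51). GINS1 (25407727), a subunit of the replicative helicase, had 1.58 in WT, against 0.315 in CFAP20-KO and 0.657 in the double knockout, and in CFAP20-KO lay below its segment (0.194, 0.0532 to 0.5). CDC25B (3795835), a phosphatase that activates cyclin-dependent kinases, had 1.5, 0.81 and 0.14 and lay below it in CFAP20/CCNC-dKO. NINL (25585517), a centrosomal gene, had 1.74, 1.5 and 1.12, above its segment in CFAP20/CCNC-dKO (0.775, 0.476 to 1.2). NCAPG2, a condensin subunit gene of the same list, lay above its segment in CFAP20-KO, with ratios of 1.15 and 0.512.

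The transcription and chromatin list had 4 of 25 genes as members, with medians of 0.804 and 0.572. Of the 4, 2 were lower in CFAP20-KO, 3 in CFAP20/CCNC-dKO and 1 in both. TRIM24 (138460334), a chromatin reader gene, had 1.93, 2.16 and 0.858, above its segment in CFAP20-KO (1.1, 0.711 to 1.63) and at 0.536 in CFAP20/CCNC-dKO. CNOT4 (135510091), a ubiquitin ligase gene, had 1.68, 0.593 and 1.05, and CSNK2A1 (543821), the catalytic subunit of casein kinase 2, 2.15, 1.27 and 0.816. With so few members the median moves with single genes.

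RNA processing and translation had 6 of 27 genes as members, 3 of them at least 1.5-fold lower in CFAP20-KO (median 0.646) and all 6 in the double knockout (0.432). ZC3HAV1 (139109648), an antiviral RNA-binding protein gene, had 2.33, 1.42 and 1.18. MRPS33 (141014983), of the mitochondrial ribosome, had 1.81, 1.24 and 0.879, and the nucleolar NOM1 (156949723) 1.49, 0.923 and 0.19. NOM1 lay below its segment in CFAP20/CCNC-dKO (0.153, 0.0394 to 0.409).

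Metabolic and mitochondrial genes had 12 of 34 as members, 11 of them expressed, and 6 were lower in both (medians 0.579 and 0.449). ITPA (3209360), which clears inosine triphosphate, had 2.64, 1.57 and 0.791, BPGM (134646808), of 2,3-bisphosphoglycerate synthesis, 2.62, 1.97 and 0.982, and SMOX (4148779), spermine oxidase, 2.48, 1.67 and 0.406. SMOX lay below its segment in CFAP20/CCNC-dKO (0.197, 0.0845 to 0.391).

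Cell surface, cytoskeleton and signalling genes had 18 of 39 as members, and 10 of 17 expressed ones were lower in both (medians 0.528 and 0.493). Among them MAVS (3846843), the mitochondrial antiviral adaptor, had 2.68, 1.61 and 1.5. Protein folding, ubiquitin and transport genes had 12 of 34 as members, 6 lower in CFAP20-KO, 8 in CFAP20/CCNC-dKO and 6 in both (0.623 and 0.526). Zinc finger genes, by symbol, were the largest class with 45 members, of which 25 of 39 expressed ones were lower in both (0.546 and 0.483). ZNF784 (55624601) had 2.8, 1.46 and 0.655. All expressed members had medians of 0.578 and 0.506, so the larger lists sat near the level of all members.

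Tissue-restricted genes, 18 of 39 as members, were mostly at background, with a median WT promoter of 0.282. Of the 6 with a BrU-seq value above 0, 4 were lower in both. SNAP25 (10218833), a synaptic fusion protein gene, had 1.05 in WT, against 0.15 in CFAP20-KO and 0.121 in the double knockout (0.139 and 0.139). TNNT1 (55149354), a muscle troponin gene, had 0.632, 0.0825 and 0.259, and GIMAP2 (150685700), a lymphoid GTPase gene, 0.609, 0.25 and 0.215. Each knockout value rests on 1.07 to 5.18 fragments.

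WT replicates 2 and 3 were not used to choose the segments and show whether WT replicate 1 was unusual there. Their deposited density covers 100 kb on each side of replication origins, and 80 member TSSs lay in windows of origins whose direction is given. Median flank density at these 80, relative to 1699 TSSs outside, was 0.982, 0.96 and 0.966 in WT replicates 1, 2 and 3 (0.969 ± 0.0118, SD, n = 3). At the same TSSs CFAP20-KO was at 0.565 and CFAP20/CCNC-dKO at 0.543. In these flank medians the 3 WT libraries were alike. Both knockouts lay below all of them in each segment, but knockout flank density chose the segments, so this is a description. Expressed promoters at 67 TSSs gave 1.19, 1.12 and 1.16 in WT against 0.524 and 0.558. Promoters spread more between WT libraries within segments, as in 7 distal with 1.23, 0.983 and 1.4 against 0.598 and 0.588. MDFIC had 3.93, 1.78 and 3.03 in WT, against 2.12 in CFAP20-KO and 1.58 in the double knockout. ESYT2 had 5.56, 3.2 and 3.96, against 2.42 and 1.82. CFAP20-KO thus lay above WT replicate 2 at MDFIC and below all 3 at ESYT2. Counting intervals of single genes do not cover this spread.

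**Figure D5:**
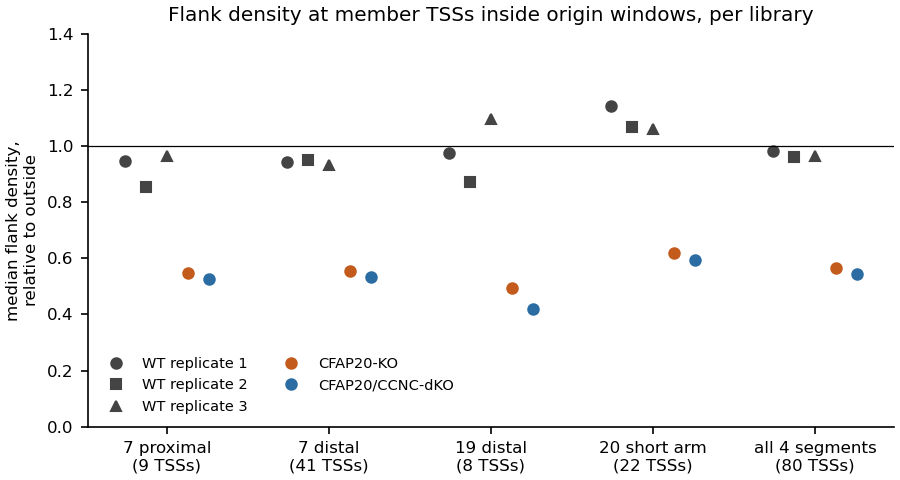
Median flank density at member TSSs inside windows of directed replication origins, relative to TSSs outside (vertical axis), for 3 WT libraries, CFAP20-KO and CFAP20/CCNC-dKO (1 library each), by segment with the number of TSSs. Over all 4 segments the WT points lie at 0.96 to 0.982 and the knockouts at 0.565 and 0.543.

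By segment, the 41 TSSs of 7 distal had 0.942, 0.951 and 0.932 in WT (0.942 ± 0.00971, SD, n = 3), and the 22 of 20 short arm 1.14, 1.07 and 1.06. The 8 TSSs of 19 distal spread most, with 0.974, 0.87 and 1.1, and the 9 of 7 proximal had 0.948, 0.854 and 0.966. The knockout values were 0.494 and 0.419 in 19 distal and 0.547 and 0.528 in 7 proximal. Over the whole windows of the 155 origins in the segments, WT density was 1.02 times the library median (± 0.00365, SD, n = 3). With 3 libraries a two-sided exact sign-flip test cannot go below p = 0.25, so none was run.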

How the data were processed

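RNAPII ChIP-seq coverage around TSSs (10-bp bins, 5000 bp on each side) was used for 1 library each of WT, CFAP20-KO and CFAP20/CCNC-dKO, and coverage around replication origins (200-bp bins) for 5 libraries, 3 of them WT. The authors deposited these values as spike-in normalized signal, per the labels, on hg38 with BDGP6 for the spike-in. The submitters' processing notes name R 4.0.5, HOMER 4.8.2, BWA 0.7.17 and STAR 2.7.7a, and SAMtools 1.11 with Trim Galore 0.6.5 and FastQC 0.11.9. BrU-seq values were taken as deposited and only split TSSs into classes. Values of another assay in 2 columns of the files were not used.

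Of 9944 listed TSSs, 9787 were in all 3 files. Coverage was a whole multiple of 1 step per library, which gave equivalent fragments (coverage divided by step and fragment length) and Clopper-Pearson 95% intervals. Before log2 ratios 0.0424 was added to each density, which is 10% of the median at promoters. Ratios were divided by the median outside the segments. Genotypes were not tested against each other, since each had 1 library. WT replicates are separate samples per the labels, and their SD may be technical. Named genes were members whose promoter interval lay above, or below, the segment ratio in both knockouts, the 4 highest and 4 lowest promoter ratios in each knockout among members with at least 20 WT fragments, the 4 highest WT promoters of each segment, the 3 TSSs on each side of an edge, and the 3 highest WT promoters of each gene list. Members and lists were chosen with earlier results of these data known. Scripts ran in Python 3.11.15 with numpy 2.4.6, pandas 2.3.3, scipy 1.17.1 and matplotlib 3.10.9, with GENCODE 44 as annotation, and were tested on simulated data. Alternatives changed the pseudocount, centring, windows, the definition of expressed, the fold, the interval and the number of TSSs at an edge. Some promoter sequences are not reported here.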

Additional observations from a re-analysis of the deposited data

How the results depend on the processing

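Density in the segments was below WT in flank, promoter and body in both knockouts under every alternative run, and its size moved with some. Without centring, the median log2 ratios in CFAP20-KO were -0.73 for flanks and -0.68 for bodies, and in CFAP20/CCNC-dKO -1.23 for promoters and -0.80 for bodies. The CFAP20/CCNC-dKO / CFAP20-KO promoter value was then -0.46. Upstream flanks alone gave -0.83 and -0.88, and members with no listed BrU-seq value gave -0.78 in CFAP20/CCNC-dKO. With expressed members defined by mean promoter density, promoters were at -0.91 and -1.08, the promoter to body ratio at -0.15 and -0.32, and the promoter ratio between knockouts at -0.21. A pseudocount of 2% gave bodies of -0.84 and -0.95, and in CFAP20/CCNC-dKO promoters of -1.04 and a promoter to body ratio of -0.18. The promoter window of -500 to 1000 bp gave -0.86 in CFAP20-KO, with 7 members below their segment, and 29 above it in CFAP20/CCNC-dKO. At least 2-fold lower in CFAP20-KO were 94 promoters. With 99% intervals 9 and 8 members lay above and 6 and 6 below. With 5 TSSs on each side the steps at the start of 7 proximal in CFAP20-KO (0.087) and at its end in CFAP20/CCNC-dKO (0.028) changed sign. The cause was not tested. WT density at origins was 1.02 at 75 to 100 kb, and 1.02 to 1.02 when each WT library was left out. No paired analysis was possible because the groups share only replicate number 1. Knockout depth, a median of 6.82 and 7.36 fragments per promoter, limits every single-gene value.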
